A study of Mus musculus with 10 samples.

Results

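The genes described here are 10 genes of skeletal muscle, namely Myh1, Myh2, Myh4, Acta1, Ckm, Mb, Tnnt3, Tnni2, Scn4a and Apobec2. They were read in lumbar spinal cord as a gauge of how much muscle stayed attached to the dissected tissue. They were chosen for their function in muscle, with earlier results of these data known. They make up 10 of the 22024 genes in the count table. All 10 passed the filter on low counts, with 15191 genes tested in all.

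Each library held polyA RNA from tissue labelled as lumbar cord of 1 female mouse aged 3 months. In the M337V mice (n = 5, numbered 1, 2, 3, 7 and 9) human TARDBP with the ALS-linked M337V mutation sat on a bacterial artificial chromosome (BAC) placed in a single copy at Rosa26. The WT mice (n = 2, numbered 8 and 10) carried this construct without the mutation, and the NTg mice (n = 3, numbered 4, 5 and 6) were nontransgenic C57BL/6 animals. Both transgenic lines came from targeted embryonic stem cells and kept the mouse gene Tardbp, and per the design text the founders were crossed back to C57BL/6J for at least 3 generations and controls were littermates. Whether an animal carried the construct on 1 or both alleles is not given in the sources used here, and it was likewise not given how cord was freed from the tissue around it.

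Library totals ran from 18724888 to 19571914 counts in M337V, from 19424118 to 20932246 in WT and from 19948913 to 21041474 in NTg. Human TARDBP stood at 116 to 141 CPM (read counts scaled by TMM to a common library size) in M337V and at 114 and 127 CPM in WT. NTg 5 and NTg 6 held 1 and 4 counts of it. The library labelled NTg 4 held 2415 counts (118 CPM), which goes against its label, and the main counts that rest on it are also given without it. Posterior Hox genes, which mark the lumbar level, summed to 35.6 CPM in M337V 3 and 12.4 CPM in WT 8, against 116 to 221 CPM in the other 8 libraries. These 2 libraries stand apart from the other libraries labelled lumbar, and the part of cord level in the results was not tested. Cord markers were high in every library. The neuronal vesicle gene Snap25 stood at 2592 to 3419 CPM and Mbp, encoding myelin basic protein, at 10044 to 16551 CPM.

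Skeletal muscle contracts when motors of thick filaments, built from myosin heavy chains, pull on thin filaments of actin that troponin and tropomyosin switch on in response to calcium. Fast fibres differ in their heavy chain: type IIa fibres make Myh2, type IIx fibres Myh1 and type IIb fibres Myh4, while slow fibres make Myh7, which the heart makes too. The fast chains are made in muscle fibres, which the cord itself does not contain. The muscles along the spine lie next to the vertebral column from which cord is taken.

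The 3 fast myosin genes lie side by side on chromosome 11 (GRCm38). Myh2 spans 67171027 to 67197517, Myh1 67200052 to 67224575 and Myh4 67238029 to 67260446, all on the plus strand. Their promoters are shown as those of neighbouring genes. The order of libraries was not particular to these neighbours, since all 10 genes, on several chromosomes, had the same 3 highest libraries. The part of promoter sequence in that order was not tested. The sequences are from RefSeq (GRCm38.p6), from base -250 to base -51 before the annotated start for the myosins and over the 250 bases before it for Acta1, which encodes skeletal α-actin. Capitals mark, in the myosins, a run of 20 bases that all 3 share and, in Acta1, a CArG box, the element that serum response factor binds.
Myh1, chr11:67199852-67200051, plus strand: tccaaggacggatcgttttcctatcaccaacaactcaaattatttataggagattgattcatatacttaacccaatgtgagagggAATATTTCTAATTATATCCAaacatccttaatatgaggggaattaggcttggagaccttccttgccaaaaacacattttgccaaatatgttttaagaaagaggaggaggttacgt
Myh2, chr11:67170777-67170976, plus strand: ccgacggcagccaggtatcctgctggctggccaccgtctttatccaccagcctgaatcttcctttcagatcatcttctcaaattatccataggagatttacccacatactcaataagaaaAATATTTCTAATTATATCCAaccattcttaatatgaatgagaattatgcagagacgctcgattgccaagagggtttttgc
Myh4, chr11:67237562-67237761, plus strand: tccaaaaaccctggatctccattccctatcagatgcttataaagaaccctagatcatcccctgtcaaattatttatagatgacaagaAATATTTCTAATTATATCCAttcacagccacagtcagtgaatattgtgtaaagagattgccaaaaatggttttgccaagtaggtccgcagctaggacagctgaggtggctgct
Acta1, chr8:123894776-123895025, minus strand: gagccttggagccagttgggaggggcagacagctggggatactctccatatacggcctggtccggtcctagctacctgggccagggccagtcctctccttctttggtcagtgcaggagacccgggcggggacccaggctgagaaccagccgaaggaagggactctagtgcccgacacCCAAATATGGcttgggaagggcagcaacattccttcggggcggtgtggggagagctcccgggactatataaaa

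The shared run begins at base -165 in Myh1, -130 in Myh2 and -163 in Myh4. It was picked as the longest run common to these 3 promoters, so its presence in them was fixed in advance. They were the 3 of 32851 promoters of 250 bases (0.00913%) that held it on either strand, a share that tests nothing. Of the 10 genes, 8 had a promoter in the RefSeq table, and motifs were sought on both strands of the 250 bases before the start. A CArG box was found in Acta1, at base -73, and in Myh4, against 1.47% of all promoters. A MEF2 site was found in Myh1 and Myh4, against 2.92% of all promoters. CAGCTG, a form of the E-box CANNTG to which MyoD binds, was found in 5 genes (Acta1, Apobec2, Ckm, Mb and Myh4), against 13.0% of all promoters. TATAAA was found in 4 genes (Acta1, Apobec2, Myh1 and Myh4), against 12.4%. These are matches of letters and not measured binding.

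The muscle genes were detected in all 10 libraries at very different levels. Their summed level was 92.7, 57.7, 150.0, 96.2 and 23.2 CPM in M337V 1, 2, 3, 7 and 9, 522 and 15.9 CPM in WT 8 and WT 10, and 137, 608 and 963 CPM in the libraries labelled NTg 4, NTg 5 and NTg 6. NTg 6 was thus 60.4-fold above WT 10, and NTg 5, NTg 6 and WT 8 stood above the other 7 libraries. The means were 84.0 ± 47.4 CPM in M337V (SD, n = 5) and, over fewer libraries, 269 ± 358 CPM in WT (SD, n = 2) and 569 ± 414 CPM in NTg (SD, n = 3), or 785 ± 251 CPM over NTg 5 and NTg 6 alone (SD, n = 2). As a share of all counts the 10 genes took 0.0023% in M337V 9 (95% exact binomial interval 0.00209 to 0.00253%), 0.00156% in WT 10 (0.0014 to 0.00174%) and 0.0983% in NTg 6 (0.097 to 0.0996%), intervals that cover counting error only. In bulk tissue, fewer muscle fibres and less RNA per fibre cannot be told apart.

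**Figure D1:**
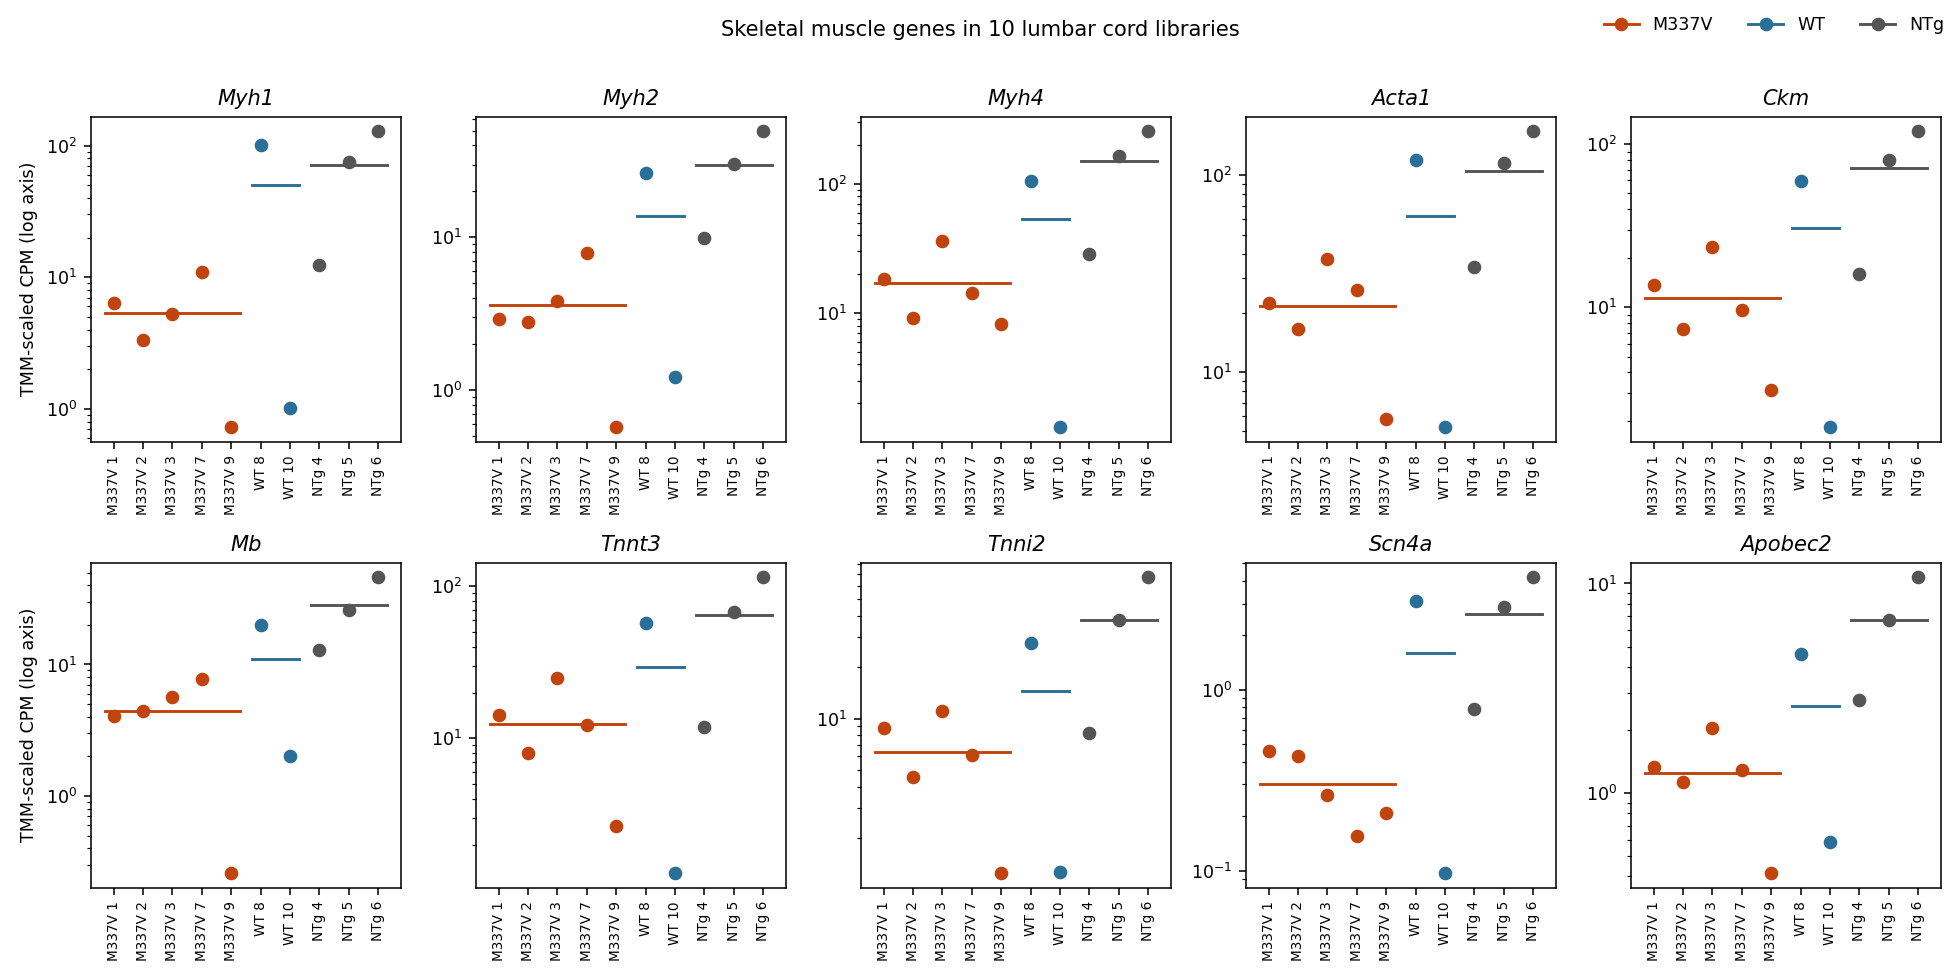
TMM-scaled CPM (log axis, a scale of its own for each gene) of the 10 skeletal muscle genes in the 10 libraries. Points are libraries and lines are group means (n = 5 M337V, 2 WT and 3 NTg). In every panel the 3 highest points are WT 8, NTg 5 and NTg 6, and WT 10 or M337V 9 is the lowest.

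The order of libraries was much the same for all 10 genes. In each of them NTg 5, NTg 6 and WT 8 were the 3 highest libraries, and NTg 6 was the highest. WT 10 was the lowest library for 5 genes (Myh4, Acta1, Ckm, Tnnt3 and Scn4a) and M337V 9 for the other 5. The fold between the highest and the lowest library ran from 25.8 for Apobec2 to 194 for Myh4, with a median of 75.6 over the 10 genes. Libraries with the same genotype label also differed widely. The highest M337V library was 2.97-fold to 29.6-fold above the lowest (median 8.21), and WT 8 was 7.88-fold to 97.8-fold above WT 10 (median 27.1). NTg 6 was 3.6-fold to 10.4-fold above the library labelled NTg 4 (median 6.43), whose human TARDBP goes against that label.

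The fast myosin heavy chains came in the same libraries. Myh4, the chain of the fastest fibres, stood at 18.3, 9.12, 36.3, 14.2 and 8.21 CPM in M337V 1, 2, 3, 7 and 9, 105 and 1.31 CPM in WT 8 and WT 10, and 28.4, 166 and 255 CPM in the libraries labelled NTg 4, NTg 5 and NTg 6. Myh1, of type IIx fibres, stood at 6.39, 3.33, 5.28, 10.9 and 0.728 CPM in M337V, 100.1 and 1.02 CPM in WT, and 12.3, 74.6 and 128 CPM in NTg, in the same order of animals. Both genes put WT 8 with NTg 5 and NTg 6. Myh2, of type IIa fibres, stood at 2.92, 2.79, 3.81, 7.91 and 0.572 CPM in M337V, 26.2 and 1.22 CPM in WT, and in NTg at 9.94, 30.1 and 49.4 CPM. M337V 9 held the least of Myh1 and of Myh2, and for both genes every M337V library lay below every NTg library, by a small gap to the library labelled NTg 4. M337V 3, at 36.3 CPM of Myh4, lay above that library and below NTg 5 and NTg 6.

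These myosins are near copies of each other, so reads of their most alike stretches can be assigned to the wrong one or left out. Of all 100-base windows of the longest transcript, 9.73% of Myh1, 9.17% of Myh2 and 3.85% of Myh4 were found unchanged in a transcript of another gene, each time another myosin heavy chain. At 50 bases the shares were 26.7%, 26.9% and 18.9%. None of the other 7 genes had a shared window of 100 bases. The division of counts among the 3 myosins is therefore less certain than their sum.

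The mix of fast myosins varied between libraries. Myh4 made up 86.3% of Myh1, Myh2 and Myh4 counts in M337V 9 (95% exact binomial interval 80.5 to 91.0%, 183 counts), 80.0% in M337V 3 (77.1 to 82.6%, 868 counts) and 42.9% in M337V 7 (39.1 to 46.9%, 638 counts). M337V 1 and M337V 2 lay between these, at 66.2% (62.1 to 70.2%, 539 counts) and 59.9% (53.9 to 65.6%, 284 counts). WT 8 and WT 10 had shares of 45.4% (43.9 to 46.9%, 4419 counts) and 37.0% (26.0 to 49.1%, 73 counts). The shares in the libraries labelled NTg 4, NTg 5 and NTg 6 were closer to each other, at 56.1% (53.0 to 59.1%), 61.3% (60.0 to 62.6%) and 58.9% (57.9 to 59.9%). All NTg shares lay inside the range of the M337V libraries. The 2 other chains varied as well, Myh1 from 7.65% in M337V 9 to 43.3% in WT 8 and Myh2 from 6.01% in M337V 9 to 34.2% in WT 10.

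**Figure D2:**
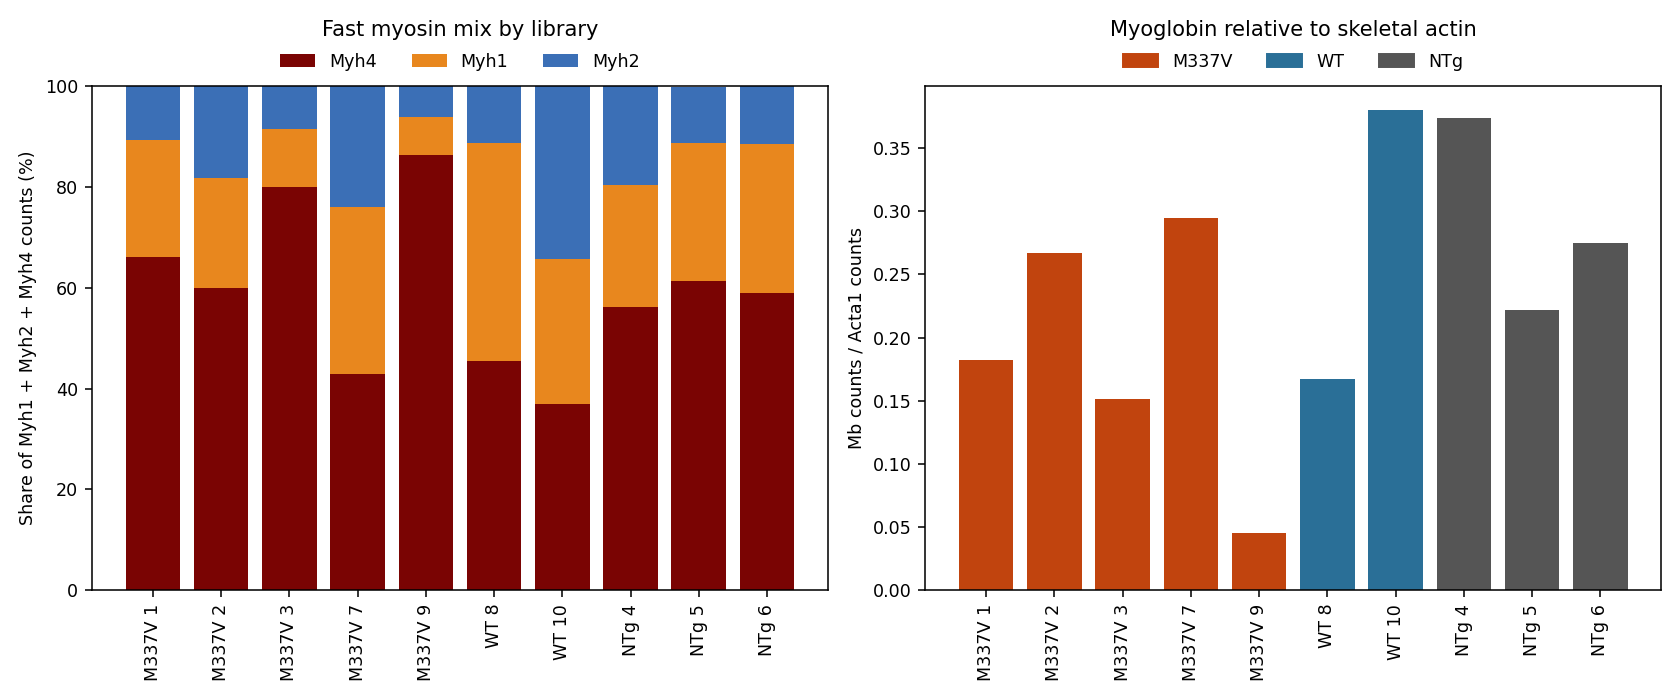
Left, share of Myh4, Myh1 and Myh2 in the counts of these 3 fast myosins in each library; right, Mb counts divided by Acta1 counts. The Myh4 share runs from 37.0% in WT 10 to 86.3% in M337V 9, and the Mb to Acta1 ratio from 0.045 in M337V 9 to 0.38 in WT 10.

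With slow Myh7 included and counts divided by exon length, Myh7 made up 1.89% and 1.96% of the 4 chains in NTg 6 and NTg 5 and 3.27% in WT 8. It made up 14.4% in the library labelled NTg 4, 7.86 to 33.1% in M337V and 47.2% in WT 10. Myh7 itself ranged in CPM from 4.24 CPM in WT 10 to 11.7 CPM in the library labelled NTg 4, far less than the fast chains. Its share was highest in WT 10 and M337V 9, which had the fewest fast myosin counts (73 and 183). Whether the Myh7 counts came from muscle fibres was not tested.

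Of the thin filament, Acta1 stood at 22.5, 16.5, 37.4, 26.1 and 5.77 CPM in M337V 1, 2, 3, 7 and 9, 119 and 5.26 CPM in WT 8 and WT 10, and 34.2, 116 and 167 CPM in the libraries labelled NTg 4, NTg 5 and NTg 6. Tnnt3, the fast troponin T that ties the troponin complex to tropomyosin, stood at 14.3, 8.05, 24.8, 12.2 and 2.65 CPM in M337V, 57.2 and 1.31 CPM in WT, and 11.8, 67.5 and 114 CPM in NTg. Tnni2, the fast troponin I that blocks contraction at rest, stood at 8.80, 4.56, 11.1, 6.10 and 1.25 CPM in M337V, 27.8 and 1.27 CPM in WT, and 8.27, 38.0 and 67.1 CPM in NTg. In all 3 genes M337V 3 lay above the library labelled NTg 4, and every M337V library lay below NTg 5 and NTg 6. Acta1 (chromosome 8, 123891769 to 123894751, minus strand) was the most abundant of the 10 per length, with a mean over libraries of 35.8 CPM per kilobase of exon, against 19.8 for Tnnt3, 11.6 for Tnni2 and 10.7 for Myh4. Tnnt3 (chromosome 7, 142498836 to 142516009) and Tnni2 (chromosome 7, 142441808 to 142444410) are neighbours on the plus strand.

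Of the genes of energy and oxygen supply, Ckm, the muscle creatine kinase that renews ATP (chromosome 7, 19404776 to 19422841, plus strand), stood at 13.7, 7.40, 23.4, 9.71 and 3.12 CPM in M337V 1, 2, 3, 7 and 9, 59.6 and 1.85 CPM in WT 8 and WT 10, and 16.0, 80.1 and 119.9 CPM in the libraries labelled NTg 4, NTg 5 and NTg 6. Mb, the oxygen store myoglobin (chromosome 15, 77015487 to 77050670, minus strand), stood at 4.09, 4.40, 5.64, 7.70 and 0.260 CPM in M337V, 19.9 and 2.00 CPM in WT, and 12.8, 25.8 and 46.0 CPM in NTg. Every M337V library lay below every NTg library for Mb, whereas for Ckm M337V 3 lay above the library labelled NTg 4 and below NTg 5 and NTg 6. Mb is most abundant in oxidative fibres and in the heart. Relative to Acta1 its counts varied widely, with ratios of 0.182, 0.267, 0.151, 0.295 and 0.045 in M337V, 0.167 and 0.38 in WT, and 0.374, 0.222 and 0.275 in NTg. The lowest Mb ratio and the highest Myh4 share were both in M337V 9, where Mb had 5 counts and Acta1 111. That Mb ratio thus rests on few counts.

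Scn4a and Apobec2 were the least abundant of the 10 in CPM. Scn4a, the sodium channel that carries the action potential of muscle fibres (chromosome 11, 106318592 to 106353288, minus strand), stood at 0.46, 0.429, 0.261, 0.155 and 0.208 CPM in M337V 1, 2, 3, 7 and 9, 3.09 and 0.0974 CPM in WT 8 and WT 10, and 0.783, 2.86 and 4.19 CPM in the libraries labelled NTg 4, NTg 5 and NTg 6. Apobec2, a member of the cytidine deaminase family that is abundant in heart and skeletal muscle (chromosome 17, 48419231 to 48432930, minus strand), stood at 1.33, 1.13, 2.04, 1.29 and 0.416 CPM in M337V, 4.60 and 0.584 CPM in WT, and 2.79, 6.70 and 10.7 CPM in NTg. For both genes the M337V libraries all lay below the NTg libraries, and WT 8 lay above every M337V library. WT 10 lay below all M337V libraries for Scn4a and between them for Apobec2. Per length, Scn4a was the scarcest of the 10, at 0.178 CPM per kilobase over all libraries, against 1.98 for Apobec2 and 1.89 for Myh2.

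Among themselves the 10 genes kept unequal ratios. The log2 ratio of counts to Acta1 counts had an SD over the 10 libraries of 0.30 for Tnni2, 0.34 for Ckm, 0.43 for Tnnt3, 0.47 for Apobec2, 0.59 for Myh2, 0.77 for Scn4a, 0.78 for Myh4, 0.78 for Mb and 0.96 for Myh1. Measured against the mean centred log2 CPM of all 10 genes, the root mean square distance ran from 0.22 for Acta1 to 0.75 for Myh1.

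The comparison of M337V with NTg asks what the mutant human gene changes. Of the 10 genes, 4 fell at an adjusted p below 0.05 (edgeR's quasi-likelihood test, Benjamini-Hochberg over all genes tested) and 0 rose, while 6 did not pass; of all tested genes 1.61% were called lower. Apobec2 averaged 1.24 ± 0.579 CPM in M337V and 6.73 ± 3.96 CPM in NTg (SD), a log2 difference of -2.44 ± 0.56 (SE, edgeR adjusted p = 0.0394). Scn4a averaged 0.303 ± 0.135 and 2.61 ± 1.72 CPM in M337V and NTg (log2 -3.09 ± 0.76, edgeR adjusted p = 0.0452). It had only 3 to 9 counts in each M337V library, under the filter's minimum count of 10. Scn4a thus passed the filter through WT 8 (59 counts) and the libraries labelled NTg (16, 58 and 90 counts), where it was high. The other called genes were Myh2, with a log2 difference of -3.05 ± 0.76 (edgeR adjusted p = 0.0464), and Mb, with -2.67 ± 0.67 (edgeR adjusted p = 0.0468). All 4 lie close to the threshold of 0.05.

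The other 6 genes did not pass. Their log2 differences were -3.75 ± 0.97 for Myh1 (edgeR adjusted p = 0.0515), -3.12 ± 0.86 for Myh4 (0.061), -2.57 ± 0.77 for Tnni2 (0.0724), -2.65 ± 0.80 for Ckm (0.0743), -2.29 ± 0.73 for Acta1 (0.0878) and -2.38 ± 0.84 for Tnnt3 (0.11). The largest difference of the 10, in Myh1, was among them. All 10 genes had an unadjusted p below 0.05 and a difference below 0, and their median was -2.66, against -0.01 over all genes tested. Every M337V library lay below every NTg library for 5 genes (Myh1, Myh2, Mb, Scn4a and Apobec2), where this held for 8.6% of all genes tested. Without the library labelled NTg 4 it held for all 10 genes, where it held for 12.7% of all genes tested.

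These calls depended on single libraries. Without the library labelled NTg 4, 2 genes were called (Scn4a, edgeR adjusted p = 0.0462, and Apobec2, 0.0437), against 0.363% of all tested genes called lower, with log2 differences of the 10 genes from -4.24 to -2.70. Without NTg 6 the count was 0, with differences from -3.02 to -1.68, and it was also 0 without M337V 1, 2, 3 or 9 or NTg 5. The median log2 difference of the 10 genes was then -2.715 without M337V 1, -2.6 without M337V 2, -2.945 without M337V 3, -2.38 without M337V 9 and -2.65 without NTg 5, against -2.66 with all libraries. Without M337V 7 the count was 2. Calls over all genes, in either direction, changed as well, so these counts are not particular to the muscle genes. From 651 with all libraries they went to 2 without NTg 6 and 280 without NTg 5. They went to 465, 53, 161, 723 and 576 without M337V 1, 2, 3, 7 and 9. With the library labelled NTg 4 and WT 8 both left out, all 10 genes were called lower, at the same -4.24 to -2.70. WT 8 is in neither group compared here, so leaving it out changed the spread shared by all groups and not these differences. Over all genes, calls in either direction rose as well, from 197 without the library labelled NTg 4 alone to 456. The step from 2 to 10 called genes therefore does not show a larger difference between M337V and NTg. The method mattered too. DESeq2 called 5 of the 10, limma-voom with quality weights 7, edgeR with robust dispersions 0 and edgeR on the 2 compared groups alone 10. All 10 kept a difference below 0 in each of these fits.

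**Figure D3:**
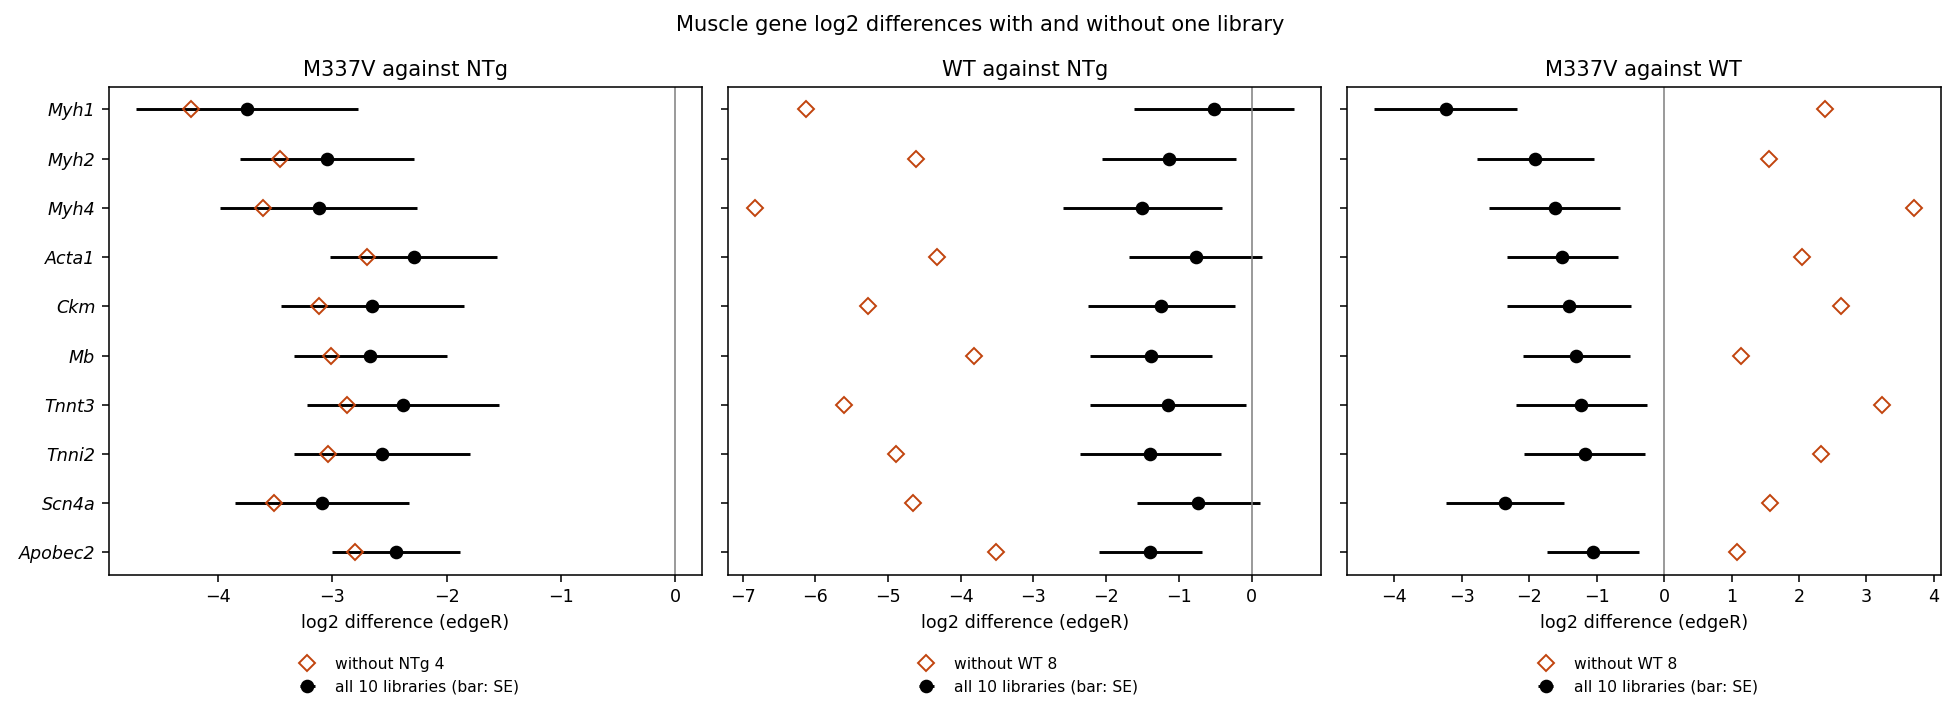
Log2 differences of the 10 muscle genes by edgeR in 3 comparisons. Black points with SE bars use all 10 libraries, and open diamonds leave out the library labelled NTg 4 (left panel) or WT 8 (middle and right panels). Without WT 8 the differences run from -6.83 to -3.51 for WT against NTg and from 1.08 to 3.70 for M337V against WT.

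The comparison of WT with NTg asks what the normal human gene changes. None of the 10 genes was called by edgeR in either direction, 0 had an unadjusted p below 0.05, and DESeq2 called 0; of all genes tested 2.05% were called lower. Log2 differences ran from -1.50 ± 1.10 for Myh4 (edgeR adjusted p = 0.427) to -0.51 ± 1.10 for Myh1 (edgeR adjusted p = 0.809), with a median of -1.19 against -0.02 over all genes. Apobec2 averaged 2.59 ± 2.84 CPM in WT (SD, n = 2) and had the smallest adjusted p, 0.247 by edgeR. For every gene WT 8 lay within the range of the NTg libraries and WT 10 below it. Without WT 8 the log2 differences ran from -6.83 to -3.51, and edgeR's adjusted p from 0.0545 to 0.0809, so 0 were called. Here WT 10 stands alone and is assumed to vary like the other groups. Without WT 10 they ran from -0.55 to 0.48, and without the library labelled NTg 4 from -1.99 to -1.01, also with 0 called. With the library labelled NTg 4 and WT 8 both left out, the log2 differences ran from -7.31 to -3.88, with WT 10 again alone.

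M337V and WT mice carried the same construct with and without the mutation, and their comparison asks what the mutation changes. None of the 10 genes was called, and edgeR called 0 of all genes tested (0%), with 1012 of these at an unadjusted p below 0.05 (DESeq2 called 30). Log2 differences ran from -3.24 ± 1.06 for Myh1 (edgeR adjusted p = 0.649) to -1.05 ± 0.68 for Apobec2 (0.807), and 3 genes (Myh1, Myh2 and Scn4a) had an unadjusted p below 0.05. Without WT 8 all 10 differences were above 0, from 1.08 to 3.70, with edgeR's adjusted p from 0.638 to 0.802. In the edgeR fits that kept WT 8, the tested genes of the 10 all had differences below 0. The 3 comparisons share libraries, M337V against NTg and WT against NTg the NTg libraries and the others likewise, so their values are not independent.

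Other genes of skeletal muscle were measured through 71 genes in 8 lists, chosen by function with earlier results of these data known. Of the 71 genes, 60 passed the filter. Between M337V and NTg 3 of the 60 fell and 0 rose, against 1.61% of all tested genes called lower; 59 had a difference below 0, and the median log2 difference was -1.51. The count was 11 without the library labelled NTg 4, 1 without M337V 7 or NTg 5, and 0 without M337V 1, 2, 3 or 9 or NTg 6. The genes that fell were Des, encoding the intermediate filament desmin (log2 -2.22 ± 0.53, edgeR adjusted p = 0.0421), Myot, encoding the Z-disc protein myotilin (-2.92 ± 0.72, 0.0446), and Tnnc1, the troponin C of slow fibres and heart (-1.20 ± 0.27, 0.0375). Des stood at 3.12, 3.00, 4.54, 3.93 and 2.08 CPM in M337V 1, 2, 3, 7 and 9, 13.5 and 1.27 CPM in WT 8 and WT 10, and 7.39, 15.7 and 23.6 CPM in the libraries labelled NTg 4, NTg 5 and NTg 6, the order that the 10 genes showed. Tnnc1 did not follow that order. It stood at 1.13 to 1.88 CPM in M337V, 2.30 and 1.22 CPM in WT, and 3.28, 2.17 and 4.28 CPM in NTg.

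The lists differed in the size of their differences. Fast sarcomere genes had a median log2 difference of -2.57, with 0 of 10 called. They include the giant proteins Ttn (titin, 11.3 ± 5.06 CPM in M337V and 75.4 ± 51.3 CPM in NTg, log2 -2.74) and Neb (nebulin, log2 -2.72), Mybpc2, the fast myosin-binding protein C (-2.44), and Tpm2, a tropomyosin (-1.57). Z-disc and costamere genes had a median of -2.42, with Des and Myot called of 10, and with the filament regulator Klhl41 at -2.77 and the titin cap Tcap at -2.61. Among 11 tested genes of excitation-contraction coupling the median was -1.86 and 0 were called. The calcium pump of fast fibres, Atp2a1, averaged 19.3 ± 10.1 CPM in the M337V libraries, 73.6 ± 101 CPM in the WT libraries and 142 ± 105 CPM in the NTg libraries (log2 -2.88 for M337V against NTg, edgeR adjusted p = 0.0723), and the calcium release channel Ryr1 differed by -2.35.

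The other muscle lists had smaller median differences. Slow sarcomere genes had a median of -1.13, with Tnnc1 called of 8. In the list of muscle energy metabolism 0 of 12 were called and the median was -0.65, with -3.34 for the muscle AMP deaminase Ampd1 and -2.49 for the mitochondrial creatine kinase Ckmt2. The glycolytic gene Pfkm of this list stood at 398 to 507 CPM in the 10 libraries and the calcium buffer Pvalb of the coupling list at 78.4 to 156 CPM. These ranges were under 2-fold, against at least 25.8-fold for the 10 muscle genes. Developmental myosin genes (2 of 4 tested, median -0.54), genes of the neuromuscular junction (4 of 7 tested, median -0.30) and myogenic regulators (3 of 8 tested, median -0.87) gave 0 calls. Chrng, the receptor subunit of fetal and denervated muscle, had 0 counts in all 10 libraries. Chrna1, the α subunit of the same receptor, reached at most 0.47 CPM, and the regulator of myoblasts Myod1 at most 0.262 CPM. For WT against NTg the 60 genes had a median of -0.64 and for M337V against WT one of -0.89, with 0 called in either.

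Outside the 10, the genes nearest to their pattern were sought among all tested genes by the root mean square difference in centred log2 CPM over the 10 libraries. The nearest were Ttn (0.22), Tnnc2, fast troponin C (0.27), Myot (0.28), Tcap (0.31), Cacna1s, the calcium channel of the fibre membrane (0.31), Trdn, encoding triadin (0.31), Neb (0.33), Xirp2 (0.34), Myoz1 (0.35) and Myom2 (0.37). All 10 were in the muscle lists, which were chosen with earlier results of these data known. The median over all other tested genes was 1.8.

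**Figure D4:**
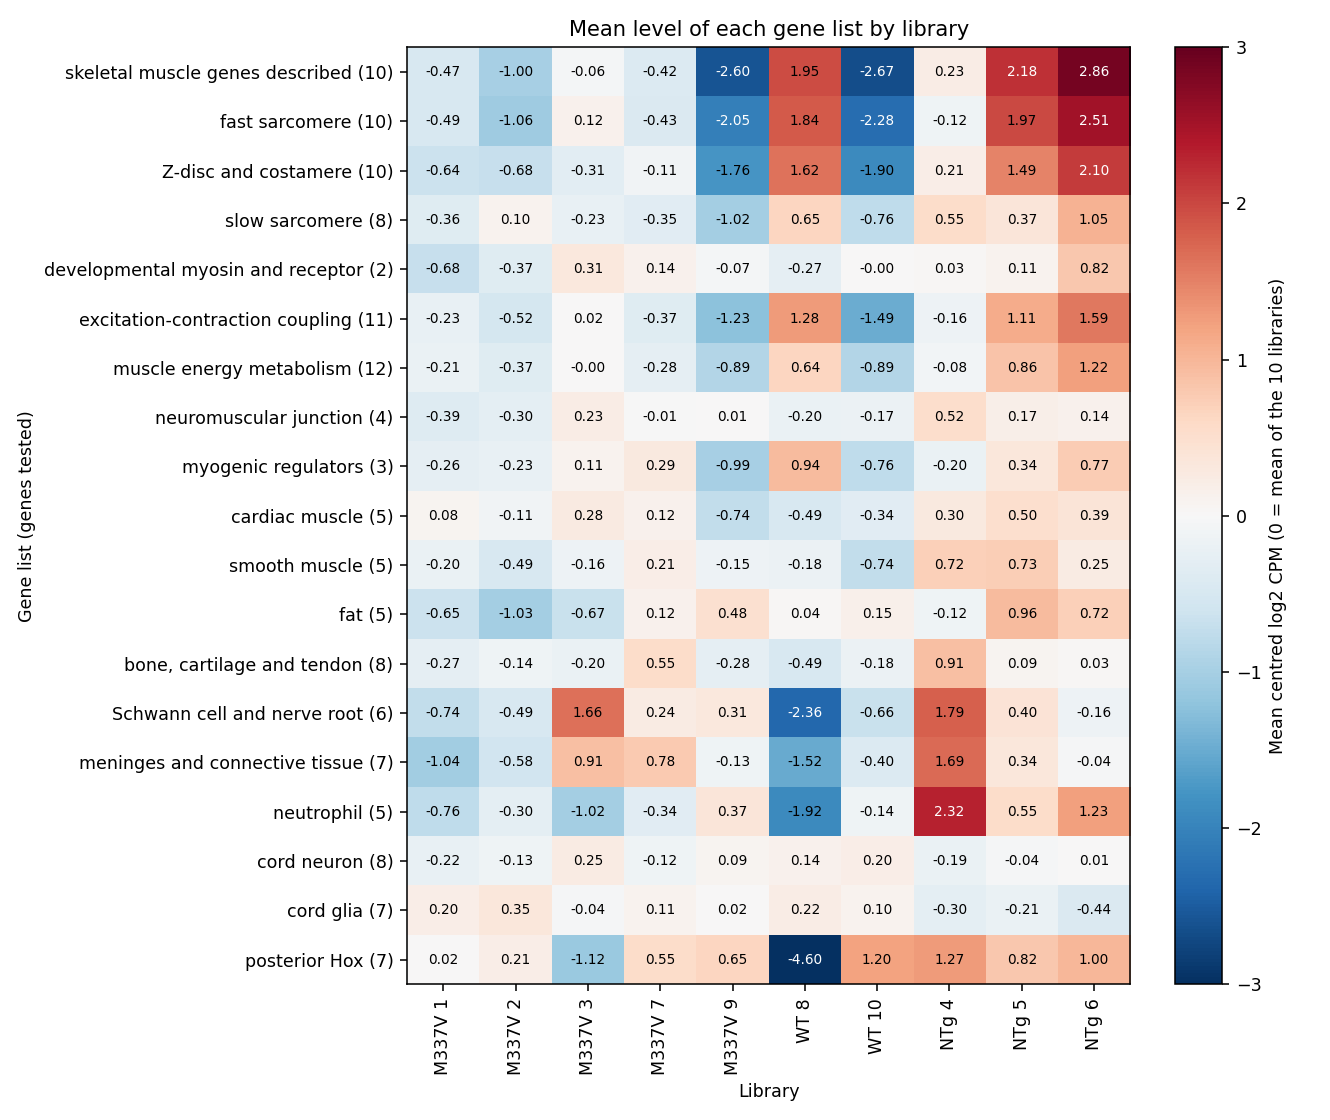
Mean centred log2 CPM of each gene list in each library, where 0 is a gene's own average over the 10 libraries, with the number of genes tested in brackets. Colours stop at 3 in either direction and the numbers give the values. The 10 muscle genes stand at 1.95 in WT 8, 2.18 in NTg 5 and 2.86 in NTg 6, whereas Schwann cell and nerve root genes stand at -2.36 in WT 8 and 1.79 in the library labelled NTg 4.

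Markers of other tissues around the cord had orders of their own. The 6 genes of Schwann cells and nerve roots summed to 253 to 1054 CPM in M337V, 197 and 306 CPM in WT 8 and WT 10, and 1219, 439 and 347 CPM in the libraries labelled NTg 4, NTg 5 and NTg 6. They were lowest in WT 8, where the 10 muscle genes summed to 522 CPM, and highest in the library labelled NTg 4, where those summed to 137 CPM. Genes of meninges and connective tissue likewise were lowest in WT 8 (80.0 CPM) and highest in the library labelled NTg 4 (715 CPM). The 8 fat genes summed to 14.6 to 21.3 CPM in M337V, 33.0 and 15.7 CPM in WT, and 18.3, 38.6 and 37.6 CPM in NTg, with NTg 5, NTg 6 and WT 8 the 3 highest libraries, as for the muscle genes. The largest part of that sum was Car3, a carbonic anhydrase that slow muscle fibres also make, at 6.6 to 28.3 CPM, while the fat hormone Adipoq lay between 0 and 0.837 CPM. Cardiac genes summed to 4.63 to 6.56 CPM in M337V, 4.81 and 5.41 CPM in the WT libraries, and 6.61 to 7.49 CPM in the NTg libraries. Of these Myh6, the myosin of the adult mouse heart, reached at most 1.55 CPM and the atrial hormone gene Nppa at most 0.341 CPM.

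Some markers moved with the groups. Neutrophil genes summed to 44.1 to 118 CPM in M337V, 24.3 and 82.3 CPM in the WT libraries, and 448, 132 and 209.8 CPM in the libraries labelled NTg 4, NTg 5 and NTg 6. Of 5 neutrophil genes, 4 fell in M337V against NTg and 4 in WT against NTg, and without the library labelled NTg 4 the count was 0 in both. Smooth muscle genes summed to 13.9 to 26.2 CPM in M337V, 15.3 and 12.6 CPM in the WT libraries, and 33.0, 31.5 and 25.0 CPM in NTg. Of 5 tested, 1 (Acta2, smooth muscle actin) fell in M337V against NTg and 2 fell in WT against NTg. Without the library labelled NTg 4 these counts were 0 and 1 of 4 tested. For neutrophil and smooth muscle genes alike, the background is the share of all tested genes called lower. With all libraries it is given above, with the muscle genes, for M337V against NTg and for WT against NTg. Without the library labelled NTg 4 it is given there for M337V against NTg only. Glial genes of the cord summed to 27190.1 to 33969 CPM in M337V, 33089 and 29167 CPM in the WT libraries, and 21684, 23024 and 19865 CPM in NTg. Of 7 glial genes, 4 rose in M337V against NTg, where 2.67% of all tested genes were called higher, and 4 rose in WT against NTg, where 3.59% were. Without the library labelled NTg 4 the count was 2 in both, against 0.938% of all tested genes for M337V against NTg. The part of these differences, of dissection and of the level of cord in the muscle gene results was not tested.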

How the data were processed

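The authors deposited unscaled read counts for each gene. The submitters' processing notes list STAR 2.4.2a, Subread 1.4.6 and featureCounts, and beside them Trimmomatic 0.32 and Salmon 0.8.2, without roles. The genome build is not given in the sources used here. Per the labels, libraries were stranded, polyA-selected and read as pairs. Gene names, coordinates and exon lengths came from GENCODE M21 (GRCm38), which named 21774 of 22024 identifiers.

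Genotype labels gave the groups and the cord numbers the replicates. Each library is a separate animal per the labels, which give no litter, dissection or sequencing batch. Counts were fitted with edgeR 4.0.16 (R 4.3.3): filterByExpr (minimum count 10, minimum total 15) kept 15191 genes and removed 6833, TMM scaled the libraries, and 1 quasi-likelihood model held a mean per group over all 10 libraries. SE is the log2 difference divided by the root of F. The fit was tested on simulated data. CPM uses TMM-scaled totals. Shares have 95% exact binomial intervals. No 2 libraries agreed within sampling noise (lowest chi-square per degree of freedom 4.87).

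The 10 genes and all lists were chosen with earlier results of these data known. The text names all 10, up to 4 tested genes with the smallest p for M337V against NTg in each muscle list, the 10 genes nearest in pattern and human TARDBP; others were named after their values were seen. Alternatives were RLE size factors, no filter, robust dispersions, limma-voom (limma 3.58.1) with quality weights, DESeq2 1.42.0, the compared groups alone, and libraries left out. Of the list of Schwann cell and nerve root genes, 1 is not reported here and was left out of its sums. Sequences came from RefSeq.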

Additional observations from a re-analysis of the deposited data

Results flagged for a closer look

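Within the 5 M337V libraries, 49 gene and list levels were looked at for a library that stands apart by Dixon's test at the 95% level, and 2 did; chance gives about 5% of such groups. Ckmt2, the mitochondrial creatine kinase of muscle, was at 0.364 CPM in M337V 9 and at 1.62 to 1.86 CPM in the other 4, a gap of 0.839 of the range. Musk, the receptor kinase of the neuromuscular junction, was at 1.15 CPM in M337V 3 and at 0.153 to 0.416 CPM in the others, a gap of 0.737 of the range.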

How the results depend on the processing

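No paired analysis was possible because the 3 groups share no animal number. For comparisons with WT, fits without WT 8 or without WT 10 leave 1 library in that group. Counts called in those fits rest on the spread within the other groups. The fit without both the library labelled NTg 4 and WT 8 also leaves WT 10 alone. For M337V against NTg, leaving out WT 8 acts on the counts called through the spread shared by all groups. Scaling by RLE moved the median of all genes by 0.02 or less. For the 10 muscle genes, the count lower in M337V than in NTg (4) was 0 with robust dispersions, 7 with limma-voom, 10 with the compared groups fitted alone, 10 without both the library labelled NTg 4 and WT 8, 0 without M337V 1 to 3, and 0 to 2 without single libraries. For WT against NTg (0) it was 9 without both NTg 4 and WT 8. The 60 other muscle genes gave, for M337V against NTg (3), 5 with RLE, 9 unfiltered, 1 robust, 18 with limma-voom, 14 with DESeq2, 35 alone, 37 without both libraries, 0 without M337V 1 to 3, and 0 to 11 without single libraries. For WT against NTg (0) they gave 25 without both and 0 to 4 without single libraries. Over all genes, M337V against NTg (651) gave 1315 with limma-voom, 1499 with DESeq2, 1057 alone, 3 without M337V 1 to 3, and 2 to 723 without single libraries. WT against NTg (857) gave 215 with limma-voom, 1720 with DESeq2, 258 alone, 142 without both, and 44 to 576 without single libraries. M337V against WT (0) gave 1 unfiltered, 1 robust, 30 with DESeq2, 4 without both, and 0 to 6 without single libraries.

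Directions turned in 2 comparisons, and the cause was not tested. Without WT 8, or without both libraries, M337V against WT was 2.38 for Myh1, 1.56 for Myh2, 3.70 for Myh4, 2.04 for Acta1, 2.63 for Ckm, 1.14 for Mb, 3.23 for Tnnt3, 2.33 or 2.32 for Tnni2, 1.57 for Scn4a and 1.08 for Apobec2; with limma-voom Myh4 was 0.32 and Tnnt3 0.16. WT against NTg was 0.48 for Myh1, 0.17 for Acta1 and 0.24 for Scn4a without WT 10, and 0.21 for Myh1 without NTg 6. Over all single libraries left out, WT against NTg reached down to -6.13 for Myh1, -4.33 for Acta1 and -4.66 for Scn4a. M337V against WT reached down to -4.23 for Myh1, -2.86 for Myh2, -2.61 for Myh4, -2.46 for Acta1, -2.38 for Ckm, -2.17 for Mb, -2.21 for Tnnt3, -2.12 for Tnni2, -3.32 for Scn4a and -1.89 for Apobec2. With raw totals in place of TMM the summed level of NTg 6 was 983 CPM. Of 30 myosin shares, 6 differed between counts and counts per kilobase by more than their interval. Levels of Scn4a, and of Mb in M337V 9, rest on few counts.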
